A study of Homo sapiens with 6 samples.

Results

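The genes that set extracellular proteolysis were examined in irradiated HK-2, an established cell line that derives from the epithelium of the human proximal tubule and has been immortalized. The set held 9 genes, chosen by gene name from the 38648 genes and gene copies listed in each file: the plasminogen activators PLAU and PLAT, the receptor PLAUR, the matrix metalloproteinases MMP1, MMP7 and MMP14, and the metalloproteinase inhibitors TIMP1, TIMP2 and TIMP3. All cells had received lentivirus and a single dose of 8 Gy of X-rays and were harvested on day 7. The 3 control libraries came from cells given a negative control lentivirus (IR+NC-LV), while the other 3 came from cells given the PRDM16 overexpression lentivirus (IR+PR-LV). Puromycin had been used to remove cells without the vector. No library of unirradiated cells was included, so the response to irradiation itself was not measured.

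PLAU (urokinase) and PLAT (tissue-type activator) are secreted serine proteases that cut plasminogen to plasmin, a protease with a broad range of matrix substrates. PLAUR holds urokinase at the cell surface. Matrix metalloproteinases are zinc enzymes made as inactive precursors, and TIMP proteins bind their active sites. In the kidney this system takes part in the turnover of the tubular basement membrane and in fibrosis, and several of its genes belong to the secretome of senescent cells.

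The total count was 13407074 to 21154634 in the IR+NC-LV libraries and 17002876 to 28540041 in the IR+PR-LV libraries. PRDM16, the gene carried by the vector, had 3 counts over the control libraries and 32 over the IR+PR-LV libraries. Each IR+PR-LV library had more than each control (exact permutation test, 2-sided, p = 0.1, the smallest value possible with 3 libraries against 3). In CPM (counts scaled to library size with TMM normalization) PRDM16 had 0.119, 0 and 0.072 in IR+NC-LV. It had 0.834, 0.358 and 0.435 CPM in IR+PR-LV, under 1 CPM in every library. Counts this low leave the size of the rise uncertain. Of 7 epithelial markers, 6 had a mean of at least 1 TPM (a count divided by gene length and scaled to the library), and CDH1 had 0.42 TPM. Of 8 markers of the mature proximal tubule, 6 lay under 1 TPM, among them LRP2, CUBN and SLC34A1, whereas GGT1 had 69.9 TPM and AQP1 2.92 TPM. The fibroblast markers had a summed level of 130 to 136 TPM in IR+NC-LV and 106 to 150 TPM in IR+PR-LV, mostly LUM, with COL1A1 at a mean of 10.5 TPM, while COL1A2, DCN and PDGFRA were under 1 TPM. The summed level of 5 leukocyte markers was 8.99 to 12.4 TPM in IR+NC-LV and 7.79 to 9.69 TPM in IR+PR-LV, and that of 4 endothelial markers was under 1 TPM in every library. IR+NC-LV replicate 3 was the shallowest library, and its root-mean-square log2 difference from the others of its group was 0.353, close to the 0.3505 of IR+PR-LV replicate 1 and above the 0.260 to 0.314 of the other 4 libraries. Member fold changes that rest on this library are given with and without it. In these bulk libraries, fewer cells with a transcript and less of it per cell cannot be told apart.

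Irradiated HK-2 cells carried high transcript levels of both proteases and inhibitors. Secreted protein, activation of the precursors and protease activity were not measured in these libraries, here or in the ratios below. The mean over the 6 libraries was 394.5 TPM for PLAU, 384 TPM for TIMP2, 315 TPM for MMP14, 313 TPM for MMP7 and 271 TPM for TIMP1. MMP1 followed with 111 TPM, PLAUR with 84.7 TPM and PLAT with 66.4 TPM. PLAU ranked 382 of the 28831 entries that had a count, and PLAT ranked 3044. The order of PLAU and TIMP2 changed from library to library, as did that of MMP7 against MMP14 and TIMP1, whereas MMP14 was above TIMP1 in 6 of 6 libraries. MMP1 also overlapped PLAUR, whereas every library had less PLAT than the lowest library of PLAUR. TIMP3, an inhibitor that stays bound to the matrix, was the exception, with 3 counts in the 6 libraries together.

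**Figure D1:**
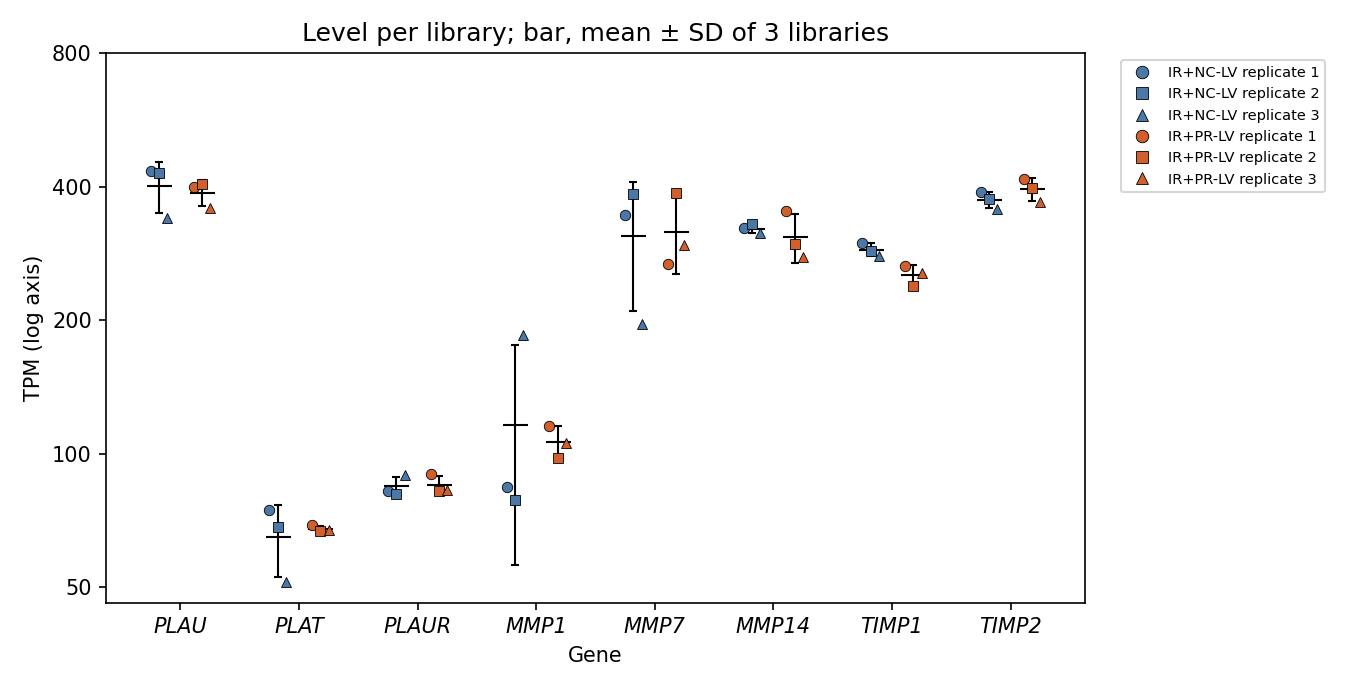
Level of the 8 detected members in each library, in TPM on a log axis, with blue symbols for IR+NC-LV, orange symbols for IR+PR-LV, a symbol shape for each replicate and bars for mean ± SD (n = 3). MMP1 and MMP7 spread most, and IR+NC-LV replicate 3 had the highest MMP1 (185 TPM) and the lowest MMP7 (196 TPM).

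Between the groups, none of the 8 tested members differed past the threshold (adjusted p under 0.05 in the quasi-likelihood test of edgeR, with p-values adjusted over 15340 genes and gene copies by Benjamini-Hochberg). Over all genes tested 10 did, or 0.0652%, with 0.0196% higher and 0.0456% lower in IR+PR-LV. None of the 8 had an unadjusted p-value under 0.05, against 10.5% of all genes tested (4.55% higher and 5.97% lower), and DESeq2 called 0 of them, against 1.13% of all. The groups overlapped for each of the 8 in CPM (counts scaled to library size with TMM normalization), whereas they did not overlap for 17.0% of all genes tested, 7.46% higher and 9.54% lower. Of the 8 log2 fold changes, 4 were above and 4 below 0 (51.1% and 48.9% of all genes tested), with a range from -0.15 for TIMP1 to 0.12 for TIMP2 and a median of 0.02, beside a median of 0.0044 over all genes tested. The labels number 3 samples of cells in each group without saying how they were grown, so the p-values measure the spread between these libraries, which may be technical.

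**Figure D2:**
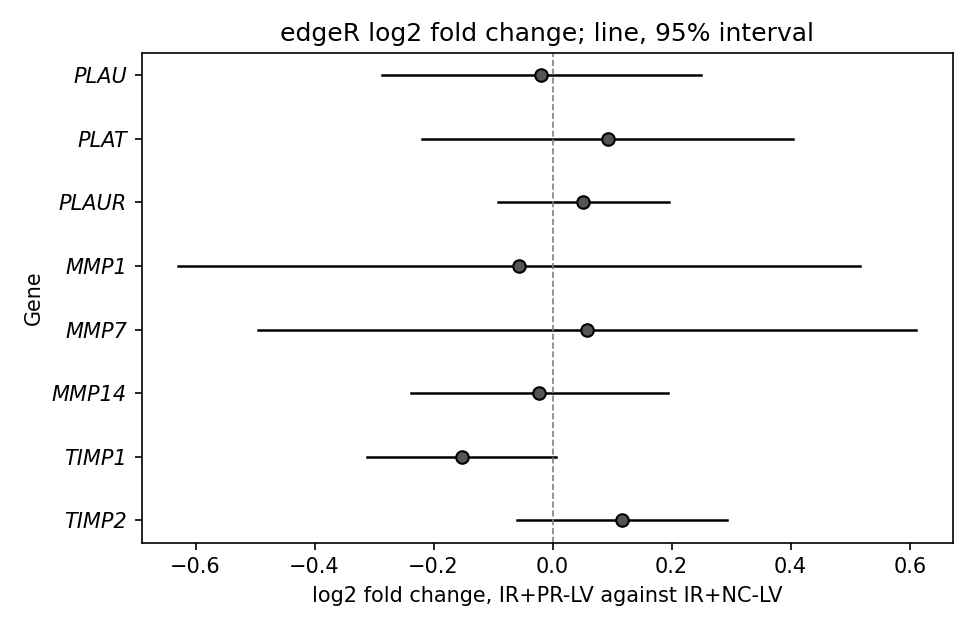
Log2 fold change of IR+PR-LV against IR+NC-LV for the 8 tested members from edgeR, with lines for the 95% interval and a dashed line at 0. Every interval includes 0, the narrowest is that of PLAUR (-0.09 to 0.20) and the widest that of MMP1 (-0.63 to 0.52).

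PLAU spans bases 73909182 to 73917497 of chromosome 10, plus strand (hg38, as in the files), with 2772 exon bases. It had 434, 430 and 340.5 TPM in IR+NC-LV replicates 1 to 3 and 398, 406 and 358 TPM in the IR+PR-LV replicates. The lowest value and the 2 highest belonged to the control group, so the IR+PR-LV libraries lay inside the range of the controls. PLAU had a log2 fold change of -0.02 with a standard error (SE) of 0.12 (edgeR, adjusted p = 0.968), and -0.15 without IR+NC-LV replicate 3 (adjusted p = 0.598). The 95% interval of the ratio ran from 0.820 to 1.19. Of the exon bases of PLAU, 29.6% lie opposite exons of C10orf55, which had 139 counts against 39082 for PLAU, and whether the counting used the strand is not given in the sources used here.

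PLAT (chromosome 8, 42174718 to 42207565, minus strand) had 74.6, 68.3 and 51.5 TPM in IR+NC-LV and 69.0, 67.1 and 67.5 TPM in IR+PR-LV. The 3 IR+PR-LV libraries lay within 2 TPM of each other, and IR+NC-LV replicate 3 was below all other libraries. With it PLAT had a log2 fold change of 0.09 (SE 0.14, adjusted p = 0.848 with edgeR), and without it -0.07.

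PLAUR, the urokinase receptor (chromosome 19, 43646095 to 43670197, minus strand), varied least of all members, between 81.4 and 90.0 TPM. Its values were 82.3, 81.4 and 89.5 TPM in IR+NC-LV and 90.0, 82.5 and 82.7 TPM in IR+PR-LV. One library of each group was near the upper end and the other 4 lay together, with no separation of the groups. For PLAUR the log2 fold change was 0.05 (SE 0.06, adjusted p = 0.814 with edgeR), with a 95% interval of the ratio from 0.938 to 1.15.

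The ratio of PLAU to PLAUR in TPM was 5.27, 5.28 and 3.80 in IR+NC-LV and 4.43, 4.92 and 4.33 in IR+PR-LV. PLAU transcripts thus exceeded those of its receptor and of PLAT in every library, by 3.80 to 5.28 and 5.31 to 6.61 times per length.

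MMP1, interstitial collagenase (chromosome 11, 102789919 to 102798160, minus strand), was measured with 7394 counts in the 6 libraries. Its level was 84.1, 78.8 and 185 TPM in IR+NC-LV and 116, 97.6 and 106 TPM in IR+PR-LV. IR+NC-LV replicate 3 was above all IR+PR-LV libraries and the other 2 control libraries were below all of them. With all libraries the log2 fold change was -0.06 (SE 0.25, adjusted p = 0.954 with edgeR). Without IR+NC-LV replicate 3 it was 0.39 (SE 0.09, unadjusted p = 0.00189, adjusted p = 0.263 with edgeR), so this library decided its direction and neither value passed the threshold. In the fit without this library, 1422 of 15661 genes and gene copies tested had an unadjusted p-value under 0.05.

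MMP7, or matrilysin, a small epithelial metalloproteinase that is known as a urinary marker in kidney fibrosis (chromosome 11, 102520508 to 102530747, minus strand), had 346, 385 and 196 TPM in IR+NC-LV and 267, 387 and 296 TPM in IR+PR-LV. Replicate 2 was the highest in both groups, at 385 and 387 TPM, and the highest library was 1.97 times the lowest. MMP7 had a log2 fold change of 0.06 (SE 0.24, adjusted p = 0.952 with edgeR), with a 95% interval of the ratio from 0.710 to 1.53. Without IR+NC-LV replicate 3 it was -0.20.

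MMP14 is a membrane-bound enzyme that activates the MMP2 precursor (chromosome 14, 22836585 to 22847758, plus strand). Its level was 322, 329 and 314 TPM in IR+NC-LV and 352, 297 and 277 TPM in IR+PR-LV. The controls lay close together, and the IR+PR-LV libraries fell on both sides of them. MMP14 had a log2 fold change of -0.02 (SE 0.10, adjusted p = 0.952 with edgeR).

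The spread between control libraries therefore differed widely among members. In CPM, the coefficient of variation in IR+NC-LV was 46.5% for MMP1 and 35.8% for MMP7, larger than that of 96.8% and 94.1% of all genes tested. It was 0.772% for PLAUR, 6.87% for MMP14, 7.16% for TIMP1 and 8.31% for TIMP2. Within IR+PR-LV it was 8.29% for MMP1 and 20.5% for MMP7.

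IR+NC-LV replicate 3 had 2.27 times as much MMP1 in TPM as the mean of the other 2 controls, a log2 difference that 1.87% of the tested genes matched or exceeded. Its MMP7 was 0.537 times that mean, matched by 3.79% of the tested genes. MMP1 and MMP7 belong to a run of 9 metalloproteinase genes on chromosome 11 between 102520508 and 102955732, and the neighbours of MMP1 in this run were high in the same library. MMP13, another collagenase, had 57.4, 59.0 and 105 TPM in IR+NC-LV and 76.8, 73.8 and 73.6 TPM in IR+PR-LV. As for MMP1, this library lay above and its 2 companions below all IR+PR-LV libraries. In that library MMP10 was 2.59 times and MMP3 1.86 times the mean of the other controls, at mean levels of 2.28 and 3.42 TPM. Off chromosome 11, the gelatinases MMP2 and MMP9 were 1.77 and 1.63 times that mean. TIMP1 (0.954), TIMP2 (0.934) and MMP14 (0.963) were close to the other controls. The part of depth or handling in these differences was not tested.

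**Figure D3:**
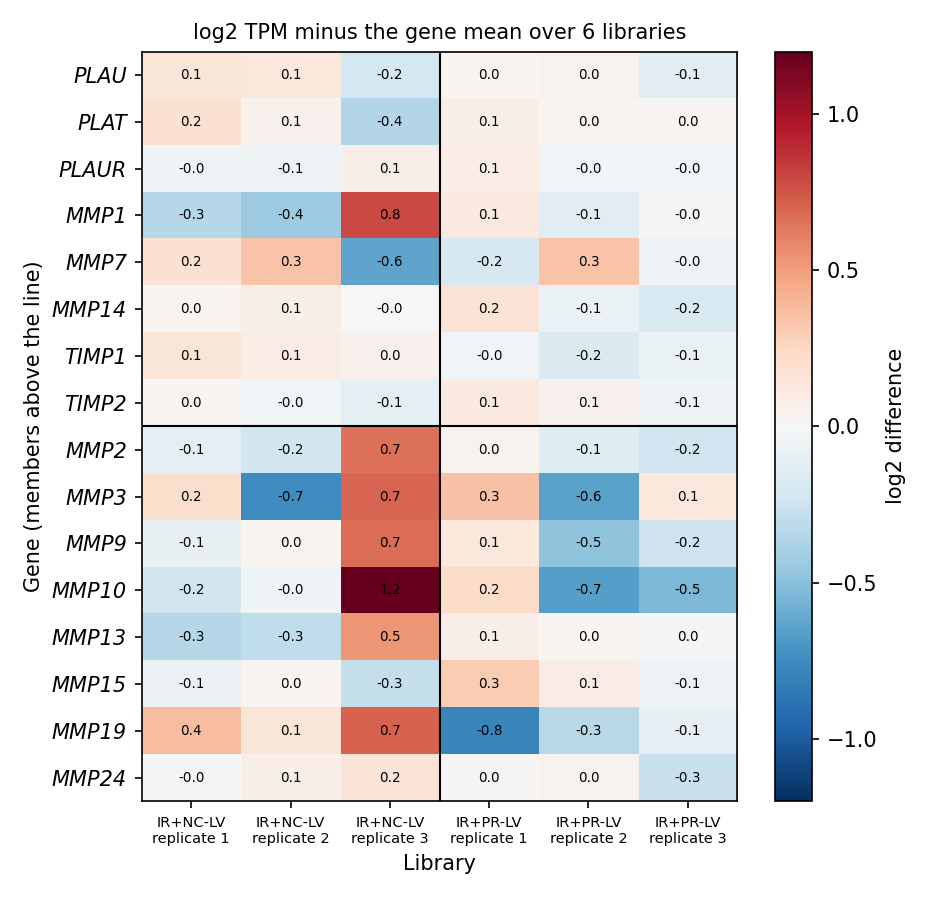
Log2 TPM of members (above the line) and of other metalloproteinase genes with a mean of at least 1 TPM (below it) in each library, minus the gene's mean over the 6 libraries, with red for higher and blue for lower. In the column of IR+NC-LV replicate 3, MMP1, MMP2, MMP3, MMP9, MMP10, MMP13 and MMP19 are red, and MMP7, PLAT, MMP15 and PLAU are blue.

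TIMP1, a secreted inhibitor of most metalloproteinases, had the largest log2 fold change by size. The gene (chromosome X, 47582408 to 47586789, plus strand) lies within the span of SYN1, which is on the other strand and shares 0 exon bases with it. Its level was 299, 287 and 279.5 TPM in IR+NC-LV and 264.5, 239 and 255 TPM in IR+PR-LV. In TPM every IR+PR-LV library was below every control library, with means of 288 ± 9.71 and 253 ± 12.8 TPM (SD, n = 3 each). The share of all genes without overlap in TPM was not computed, and in CPM it was 17.0% of all genes tested. In CPM the values were 169, 165.5 and 148 in IR+NC-LV and 152, 138 and 144 in IR+PR-LV, so IR+NC-LV replicate 3 fell below the highest IR+PR-LV library. TIMP1 had a log2 fold change of -0.15 (SE 0.07, unadjusted p = 0.0578, adjusted p = 0.488 with edgeR). Its 95% interval of the ratio ran from 0.806 to 1.004, and leaving out single libraries gave -0.21 to -0.12. Without IR+NC-LV replicate 3 the unadjusted p-value was 0.00963 and the adjusted p-value 0.394 with edgeR. In that fit 1422 of 15661 genes and gene copies tested had an unadjusted p-value under 0.05.

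TIMP2, which inhibits metalloproteinases and also takes part in the activation of the MMP2 precursor by MMP14 (chromosome 17, 78852977 to 78925387, minus strand), had 389, 375 and 356 TPM in IR+NC-LV and 416, 397 and 370 TPM in IR+PR-LV. The IR+PR-LV replicates 1 and 2 were above all controls and the third lay among them. For TIMP2 the log2 fold change was 0.12 (SE 0.08, adjusted p = 0.649 with edgeR), and it stayed between 0.05 and 0.17 with single libraries left out.

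TIMP3 (chromosome 22, 32801705 to 32863041, plus strand) had counts of 0, 1 and 0 in IR+NC-LV and 0, 2 and 0 in IR+PR-LV. It was filtered out for its low count, and no fold change is given, since both groups lay at or under the limit that a count of 0 allows. Taken as 3 counts of the total, this limit is 0.105 CPM in the deepest and 0.224 CPM in the shallowest library and covers counting error only. TIMP3 lies within SYN3, which had 15 counts and shares 0 exon bases with it. TIMP4 had 2 counts in all, so that TIMP1 and TIMP2 supplied nearly all TIMP transcripts.

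The summed TPM of MMP1, MMP7 and MMP14 was set against that of TIMP1, TIMP2 and TIMP3 in each library. The ratio was 1.09, 1.199 and 1.09 in IR+NC-LV and 1.08, 1.23 and 1.09 in IR+PR-LV, with means of 1.13 ± 0.0605 and 1.13 ± 0.0836 (SD, n = 3 each). In each group replicate 2 was the highest and the other 2 lay together. IR+NC-LV replicates 1 and 3 were alike in this sum although MMP1 divided by MMP7 was 0.243 in the first and 0.942 in the third. The ratio of MMP14 to TIMP2 was 0.829, 0.878 and 0.880 in IR+NC-LV and 0.847, 0.748 and 0.749 in IR+PR-LV, and the groups overlapped.

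Of 8 ratios computed between members, the groups did not overlap for 1, that of TIMP1 to TIMP2. For single genes in CPM, the groups did not overlap for 17.0% of all genes tested, and no such share was computed for ratios. TIMP1 divided by TIMP2 was 0.769, 0.766 and 0.784 in IR+NC-LV and 0.636, 0.603 and 0.690 in IR+PR-LV. The means were 0.773 ± 0.00971 and 0.643 ± 0.0440 (SD, n = 3 each). This ratio was chosen after the values had been seen and was not tested. Dividing 2 genes of the same library removes the scaling of that library, and IR+NC-LV replicate 3, which had low CPM of both, did not stand apart here.

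**Figure D4:**
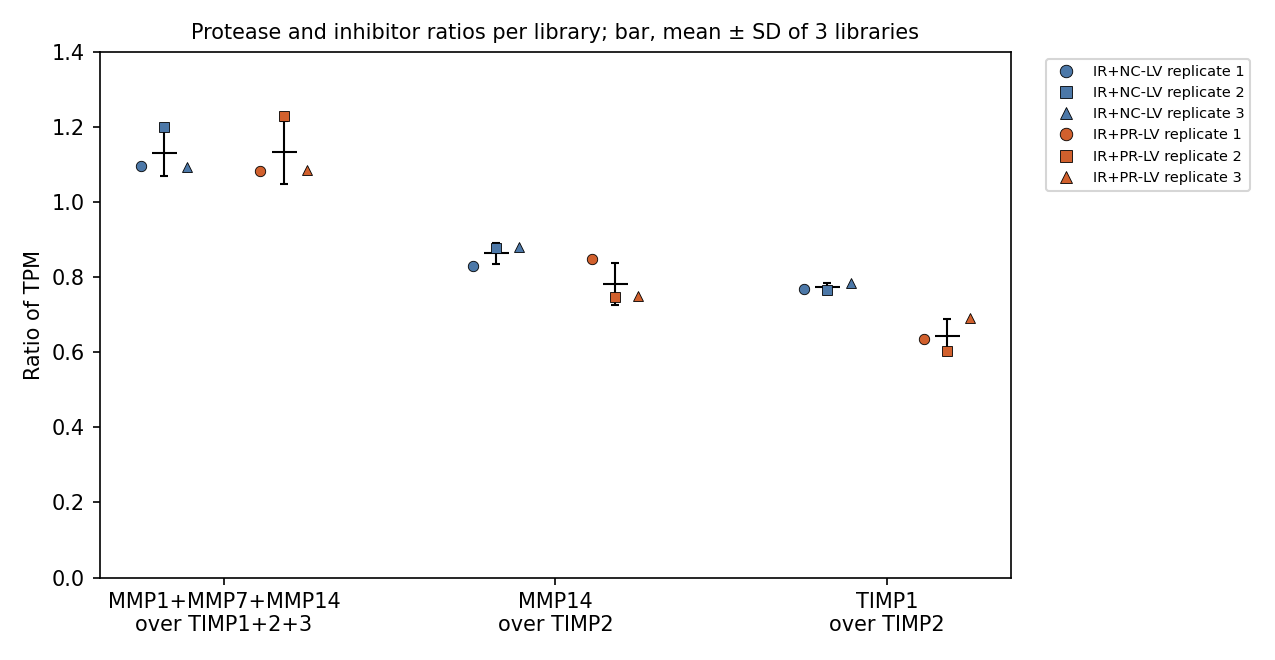
Ratios of TPM in each library for summed metalloproteinases over summed TIMP genes, MMP14 over TIMP2 and TIMP1 over TIMP2, with the symbols of the level plot and bars for mean ± SD (n = 3). The groups overlap in the first 2 ratios, and in the last one the IR+NC-LV libraries (0.766 to 0.784) lie above the IR+PR-LV libraries (0.603 to 0.690).

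Among all genes tested, those nearest to TIMP1 in pattern were ESYT3, RAB24 and CEP128. Their log2 CPM, centred over the 6 libraries, differed from that of TIMP1 by a root-mean-square of 0.0253, 0.0279 and 0.0279. None of the 3 passed the threshold between the groups (adjusted p = 0.734, 0.482 and 0.490 with edgeR).

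Promoter sequences from RefSeq were used for 6 of the 9 members, and those of PLAT, MMP1 and TIMP2 were not searched. In the 250 bases before each start (GRCh38.p14, the build family of the files), TGAGTCA and its reverse complement TGACTCA, the binding sequence of AP-1 factors, were searched for. TATAAA and its reverse complement TTTATA were searched for too. The AP-1 sequence was present in the windows of MMP7 and PLAUR and in 4.2% of 35116 windows over all genes, and TATAAA in that of MMP7 and in 10.7% of all windows. These 2 windows are shown because they share the AP-1 sequence while MMP7 was among the most and PLAUR the least variable of the members, and that of TIMP3 because this gene was not detected. Sequences run 5′ to 3′ on the gene's strand, and capitals mark the AP-1 sequence and TATAAA.
MMP7, chr11:102530748-102530997, minus strand: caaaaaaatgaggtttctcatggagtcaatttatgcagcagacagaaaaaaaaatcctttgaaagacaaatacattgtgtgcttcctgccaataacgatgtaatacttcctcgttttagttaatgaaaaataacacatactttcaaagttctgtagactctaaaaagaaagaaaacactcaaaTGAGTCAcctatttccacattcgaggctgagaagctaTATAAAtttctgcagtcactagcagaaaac
PLAUR, chr19:43670170-43670419, minus strand: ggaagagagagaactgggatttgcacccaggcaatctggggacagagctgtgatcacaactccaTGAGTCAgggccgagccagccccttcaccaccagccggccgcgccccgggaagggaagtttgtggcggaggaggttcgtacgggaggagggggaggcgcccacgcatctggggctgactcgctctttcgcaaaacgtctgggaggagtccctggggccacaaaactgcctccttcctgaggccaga
TIMP3, chr22:32801455-32801704, plus strand: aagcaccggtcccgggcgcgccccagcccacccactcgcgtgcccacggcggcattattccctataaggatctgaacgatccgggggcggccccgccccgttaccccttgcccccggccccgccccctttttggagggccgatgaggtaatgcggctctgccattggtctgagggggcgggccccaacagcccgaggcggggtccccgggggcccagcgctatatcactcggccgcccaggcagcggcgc
The first base of the AP-1 sequence lay 67 bases before the start of MMP7 and 186 bases before that of PLAUR. The window of TIMP3 held 26 CG pairs, more than 80.4% of all windows, and that of MMP7 held 3, against a median of 11. A sequence match describes these letters and is not a measured binding site.

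Among 24 other genes of the plasminogen system, 17 were tested, with 11 higher, 6 lower and a median log2 fold change of 0.04. With edgeR 0 passed the threshold, against 0.0652% of all genes tested, and 2 had an unadjusted p-value under 0.05, against 10.5%. DESeq2 called 1 of the 17, against 1.13% of all genes, namely ITGB1, the beta subunit shared by many matrix receptors. ITGB1 had 1805, 1886 and 1867 TPM in IR+NC-LV and 2007, 2220 and 2163 TPM in IR+PR-LV, with every IR+PR-LV library higher (log2 fold change 0.24, standard error 0.06, adjusted p = 0.264 with edgeR and 0.0428 with DESeq2). S100A10, which with ANXA2 forms a plasminogen receptor, had means of 198.5 ± 11.5 and 179 ± 5.56 CPM (SD, n = 3 each) with no overlap between the groups (log2 fold change -0.15, adjusted p = 0.451 with edgeR). In this list the groups did not overlap for 3 of the 17 genes, 2 higher and 1 lower, against 17.0% of all genes tested. ENO1, a glycolytic enzyme that also binds plasminogen at the cell surface, was the most abundant of the list at 2536 TPM, with a log2 fold change of 0.11 (adjusted p = 0.705 with edgeR). PLG itself had 2 counts in all 6 libraries.

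Of 20 other metalloproteinase genes, 10 were tested, with 3 higher, 7 lower and 0 past the threshold with edgeR or DESeq2. Their median log2 fold change was -0.16, beside 0.0044 over all genes tested, of which 51.1% were higher and 48.9% lower. TPM in IR+NC-LV replicate 3 was divided by the mean of the other controls. The ratio was 1.36 to 2.59 for the lower genes MMP2, MMP3, MMP9, MMP10, MMP16 and MMP19 and 1.09 for MMP24. Among the higher genes it was 1.81 for MMP13 and 0.830 for MMP15. How far the lower median rests on this library was not tested. MMP13, MMP24 and MMP15 were the most abundant, at 74.3, 44.9 and 21.2 TPM, with log2 fold changes of 0.08, -0.09 and 0.25 (adjusted p = 0.906, 0.770 and 0.549 with edgeR). MMP19 was the 1 gene of the 10 with an unadjusted p-value under 0.05 with edgeR, against 10.5% of all genes tested. It was also the 1 gene of the 10 without overlap between the groups, against 17.0% of all genes tested. It had 6.49, 5.52 and 8.17 TPM in IR+NC-LV and 2.89, 3.98 and 4.67 TPM in IR+PR-LV, and all 3 IR+PR-LV libraries lay below the controls. MMP19 had a log2 fold change of -0.75 (SE 0.20, adjusted p = 0.264 with edgeR), and it passed in the fit without a filter on low counts (adjusted p = 0.0286 with edgeR) but not with DESeq2.

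The list of TIMP-related genes and activators of MMP14 had 11 of 14 genes tested, with 8 higher, 3 lower and a median log2 fold change of 0.05. Of the 11, 0 had an unadjusted p-value under 0.05 with edgeR, against 10.5% of all genes tested. The threshold was passed by 0 with edgeR (0.0652% of all genes tested) or DESeq2 (1.13%). Its most abundant genes were TFPI2, an inhibitor of serine proteases in the matrix, at 664 TPM, BSG, an inducer of metalloproteinases, at 646 TPM, and the hyaluronan receptor CD44 at 488 TPM. Their log2 fold changes were 0.19, 0.12 and 0.05 (adjusted p = 0.487, 0.622 and 0.843 with edgeR).

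Of 28 ADAM and ADAMTS genes, which shed membrane proteins or cut proteoglycans, 21 were tested, with 12 higher, 9 lower and a median log2 fold change of 0.0088. With edgeR 0 passed the threshold, against 0.0652% of all genes tested. The groups did not overlap for 4 of the 21, against 17.0% of all genes tested. ADAM9, a membrane sheddase, was the 1 gene with an unadjusted p-value under 0.05, against 10.5% of all genes tested. Its level was 16.1, 14.4 and 24.7 TPM in IR+NC-LV and 9.01, 10.1 and 10.7 TPM in IR+PR-LV, with no overlap and the highest value again in IR+NC-LV replicate 3. For ADAM9 the log2 fold change was -0.83 (SE 0.16, adjusted p = 0.107 with edgeR), and DESeq2, which called 1.13% of all genes, called it (log2 fold change -0.82, adjusted p = 3.18e-05). ADAMTS1, ADAM15 and ADAM10 were the most abundant, with log2 fold changes of 0.03, 0.06 and 0.13 (adjusted p = 0.889, 0.873 and 0.506 with edgeR).

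The AP-1 and ETS factors, which bind the promoters of many of these genes, were all tested, with 4 of 16 higher, 12 lower and a median log2 fold change of -0.08. The threshold was passed by 0 with edgeR (0.0652% of all genes tested) or DESeq2 (1.13%), and 2 had an unadjusted p-value under 0.05 with edgeR, against 10.5%. The groups did not overlap for 7 of the 16, 2 higher and 5 lower, against 17.0% of all genes tested. FOSL1, JUN and ETS1 were the most abundant at 263, 232 and 205 TPM. JUN had means of 249.5 ± 6.60 and 213 ± 19.3 CPM (SD, n = 3 each) and a log2 fold change of -0.23 (SE 0.07, unadjusted p = 0.0115, adjusted p = 0.350 with edgeR). ETS2 had a log2 fold change of -0.33 (unadjusted p = 0.0149, adjusted p = 0.377 with edgeR), while those of FOSL1 and ETS1 were 0.06 and -0.09 (adjusted p = 0.840 and 0.601 with edgeR).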

How the data were processed

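Poly(A)-selected RNA of the 6 libraries was sequenced as paired ends. The authors filtered the reads for quality and adapters and deposited raw counts per gene, and the submitters' processing notes name featureCounts 2.0.1, DESeq2 1.16.1 and hg38. The aligner and strand setting are not given in the sources used here. The TPM values that the authors deposited follow from count and gene length, as do the FPKM values that they deposited beside them, and both were checked against the counts.

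Groups were taken from the sample titles. Counts were compared with edgeR 4.0.16 in R 4.3.3 (filterByExpr at its defaults, a CPM worth 10 counts at the median library size in at least 3 libraries and 15 counts in total, TMM factors of 0.981 to 1.04, quasi-likelihood test without covariates, Benjamini-Hochberg adjustment over 15340 genes and gene copies, threshold 0.05). The biological coefficient of variation was 0.106. The standard error is the size of the log2 fold change divided by the square root of F. Total counts of 13407074 to 28540041 set the precision of low genes, with limits for counting error only. DESeq2 1.42.0, other normalizations and filters, a replicate block, summed gene copies, thinned libraries and the omission of each library were tried as alternatives. The procedure was also run on simulated counts with the same dispersion for all genes and changes larger than those of the members. That run therefore does not show whether changes as small as theirs could be found.

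The members and gene lists were chosen with earlier results of these data known. The text names all members and, from each further list, the 3 genes with the highest mean TPM, genes past the threshold, and genes with an unadjusted p-value under 0.05 and no overlap. It also names the 3 genes nearest to the member with the largest fold change, and PRDM16. One gene fixed for naming is not reported here. C10orf55, SYN1, SYN3, ANXA2, PLG, TIMP4, MMP2, MMP3, MMP9 and MMP10, the markers and the ratio of TIMP1 to TIMP2 were named after their values had been seen. A gene with several listed copies entered by the copy with the most counts.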

Additional observations from a re-analysis of the deposited data

How the results depend on the processing

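Over 112 refits of the 8 tested members (14 for each), 0 gave an adjusted p-value under 0.05, the smallest being 0.251, and 102 kept the sign. The sign of PLAUR, TIMP1 and TIMP2 held in all 14. With one library left out, the log2 fold change ranged from -0.1522 to 0.0578 for PLAU, -0.0704 to 0.2112 for PLAT, -0.26 to 0.39 for MMP1, -0.20 to 0.27 for MMP7, -0.1273 to 0.0579 for MMP14 and 0.0096 to 0.08 for PLAUR, whose lowest value came without IR+PR-LV replicate 1. The number of genes past the threshold, 10 of 15340, was 168 with DESeq2, 342 without a filter on low counts, 17 after thinning to the smallest library (chosen after seeing the data) and 1 to 28 with one library left out, the lowest on leaving out IR+NC-LV replicate 1 or the third IR+PR-LV library, the highest on leaving out IR+NC-LV replicate 2, and 16 without IR+NC-LV replicate 3. Same-numbered libraries deviated from their group means with correlations across genes of -0.009 to 0.071. For libraries with different numbers the correlations were -0.097 to 0.062, so whether the numbers pair the libraries was not settled. With the replicate block 3 genes passed, 0 of them members, and MMP1 had a log2 fold change of 0.0252. The block lowered the standard error of each tested member except PLAUR, for PLAU from 0.12 to 0.07.

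The difference between the groups in the log2 ratio of metalloproteinases to TIMP genes, 0.0021, lay between -0.0582 and 0.0461 when single libraries were omitted. It was -0.11 without TIMP1 in the sum, a move larger than the SD within groups of 0.0915. DESeq2 called 1 plasminogen system gene (ITGB1) and 1 ADAM or ADAMTS gene (ADAM9). Without the filter, 1 other metalloproteinase gene (MMP19) and 2 ADAM or ADAMTS entries passed, ADAM9 and the second listed copy of ADAMTS12. For these calls the cause was not tested. Depth limits TIMP3, TIMP4 and PLG, which lay near 0 counts.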
